A study of Rattus norvegicus with 38 samples.

Results

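Mucus in the airway is built from gel-forming mucins and a small set of proteins that fold, accompany or switch on those mucins. The messages of 8 such genes were followed across the lungs of 38 rats: the gel-forming mucins Muc5b and Muc5ac, the membrane mucin Muc1, the mucin-folding protein Agr2, the secreted or surface products Gp2, Bpifb1 and Bpifa1, and the transcription factor Spdef. They were picked by symbol from the 14217 genes measured, each probe set carrying exactly 1 of these symbols, and each of the 8 had 1 such probe set. All animals were female N:NIH rats, 34 weeks old, of a line bred for low (LCR) or high (HCR) intrinsic running capacity. They formed 4 groups: 12 LCR rats given cigarette smoke, 7 LCR sham rats, 12 HCR rats given cigarette smoke and 7 HCR sham rats. Smoke or room air was given on 5 days a week for 12 weeks, after which RNA from about 25 mg of each lung was hybridised to its own Affymetrix Rat Genome 230 2.0 array. The 34-week age, strain and sex tags were missing for 1 of the LCR sham samples, whose growth protocol names the same animals. The comparisons ask what smoke did to the mucous genes in each line, and whether the 2 lines differed under either exposure or in their response.

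Goblet and other secretory cells of the airway epithelium store mucins in granules as densely packed, heavily O-glycosylated polymers and release them onto the ciliated surface, which carries the mucus upward. Muc5b is the mucin made at rest and is needed for mucus clearance in mice, whereas Muc5ac is the one that irritants and allergens are known to induce. Spdef, an ETS family factor, drives goblet cell differentiation in mice, and Agr2, a protein disulfide isomerase of the endoplasmic reticulum, is needed there for intestinal mucin to fold. Cells of the conducting airway are a small part of a piece of lung, so the amount of airway in a piece bears on how much of these messages it holds. In RNA from whole tissue, fewer cells of a type and less RNA per cell cannot be told apart.

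Values are the authors' linear intensities, or log2(intensity + 16), a scale that understates the change of dim probe sets such as that of Muc5ac. Changes are differences of group means on that scale ± standard error from limma, fitted over 14217 genes and 38 arrays, with p adjusted by the Benjamini-Hochberg method and a threshold of 0.05. A level is not compared between genes, because each probe set has its own brightness. Lung identity was plain on all arrays: the surfactant gene Sftpc lay between 9829.9 and 10919 in intensity and the club cell secretoglobin Scgb1a1 between 9614 and 11118. Both lay near the highest intensity of any probe set, 11558, so their narrow ranges do not show an even airway content. A few arrays stood apart by markers of heart muscle. The mean of 17 such markers, taken relative to the mean of all arrays, was 3.48 log2 on LCR sham 0442, while the rest of that group lay between -0.76 and 0.63. In HCR smoke it was 3.25 on 0415, 2.70 on 0410, 1.80 on 0414 and 1.40 on 0417, and in HCR sham it was 1.64 on 0433, the array that also stood at 4.16 in skeletal muscle markers. Results that rest on these 6 arrays are given with and without them, a choice made after seeing the data.

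Promoter sequences from RefSeq (rat build GRCr8, 250 bases before to 50 after the start site) were matched by symbol for 6 of the 8 genes. Those of Agr2, Gp2, Bpifb1 and Bpifa1, are shown here because these messages were high and low on the same arrays, as the values by animal show. That of Muc1, a gene that did not vary with them, is shown beside them.
Agr2: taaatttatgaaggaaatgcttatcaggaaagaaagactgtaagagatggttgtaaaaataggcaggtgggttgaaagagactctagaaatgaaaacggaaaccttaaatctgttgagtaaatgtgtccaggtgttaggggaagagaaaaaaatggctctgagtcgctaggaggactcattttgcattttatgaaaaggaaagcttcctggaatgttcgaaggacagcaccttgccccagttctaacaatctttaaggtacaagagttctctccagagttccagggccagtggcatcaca
Gp2: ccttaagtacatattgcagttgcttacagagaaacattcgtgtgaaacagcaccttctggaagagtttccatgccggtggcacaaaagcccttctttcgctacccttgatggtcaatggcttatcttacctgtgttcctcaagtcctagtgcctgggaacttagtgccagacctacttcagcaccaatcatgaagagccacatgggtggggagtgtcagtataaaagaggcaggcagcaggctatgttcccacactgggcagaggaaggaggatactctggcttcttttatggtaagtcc
Bpifb1: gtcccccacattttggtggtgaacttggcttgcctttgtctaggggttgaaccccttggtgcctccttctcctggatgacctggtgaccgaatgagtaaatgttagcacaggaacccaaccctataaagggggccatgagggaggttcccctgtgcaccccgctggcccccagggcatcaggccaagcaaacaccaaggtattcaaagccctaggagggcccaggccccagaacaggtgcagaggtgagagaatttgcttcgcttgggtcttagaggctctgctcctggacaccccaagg
Bpifa1: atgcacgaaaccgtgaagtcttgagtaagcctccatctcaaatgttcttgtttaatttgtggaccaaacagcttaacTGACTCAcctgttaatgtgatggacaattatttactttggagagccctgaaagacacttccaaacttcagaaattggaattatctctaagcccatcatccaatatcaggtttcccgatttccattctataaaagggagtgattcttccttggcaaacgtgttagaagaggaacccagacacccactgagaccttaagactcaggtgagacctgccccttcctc
Muc1: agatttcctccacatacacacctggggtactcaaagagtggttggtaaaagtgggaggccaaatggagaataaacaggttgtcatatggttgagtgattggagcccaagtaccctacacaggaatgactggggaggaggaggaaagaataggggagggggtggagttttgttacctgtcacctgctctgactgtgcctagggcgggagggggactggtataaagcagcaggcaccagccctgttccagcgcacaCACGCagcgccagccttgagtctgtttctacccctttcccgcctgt
The windows are chr6:58435658-58435957 on the plus strand for Agr2, chr1:183243905-183244204 on the minus strand for Gp2, chr3:163132901-163133200 on the plus strand for Bpifb1, chr3:163087715-163088014 on the plus strand for Bpifa1 and chr2:176933500-176933799 on the plus strand for Muc1. Bpifa1 and Bpifb1 are neighbours in the BPI fold gene cluster of chromosome 3. Capitals mark the only matches to 5 short motifs, each searched on both strands in these and the Spdef window. AP-1 (TGANTCA) matched in Bpifa1, as TGACTCA at position -173 from the start site, and 7.33% of 33469 RefSeq promoters hold that motif. The aryl hydrocarbon receptor core (GCGTG) matched on the minus strand of Muc1, read as CACGC at position 5, and 29.7% of promoters hold it. FOXA (TGTTTAC, in 3.78% of promoters), SPDEF (CCGGAT, in 6.64%) and the CREB family (TGACGT, in 7.94%) had 0 matches in the 6 windows. A match is a run of letters, not a shown binding site, and no match says only that these letters are not in these windows.

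In smoke-exposed LCR lungs, 3 of the 8 genes passed the test, all higher: Muc1, Bpifb1 and Muc5ac. In smoke-exposed HCR lungs 5 passed, again all higher: Bpifb1, Gp2, Agr2, Muc5b and Muc5ac. Across all genes 50.6% passed in LCR (22.7% higher) and 48% in HCR (17.7% higher), and nothing particular to the 8 genes, which were chosen with results known, is read from their count. Without the 6 arrays rich in heart markers, 4 of the 8 passed in LCR (Gp2 too), where 49% of all genes did, and 2 in HCR (Bpifb1 and Gp2), where 38.5% did. Centring each array on its median turns the split of all genes, to 5452 higher and 2970 lower in LCR against 3225 and 3968 without centring, and to 3804 higher and 3362 lower in HCR against 2513 and 4317. Bpifb1 and Muc5ac passed in both lines. Agr2, Gp2, Bpifb1, Bpifa1 and Muc5b differed most between animals of 1 group, and the levels of single animals decide much of what follows.

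**Figure D1:**
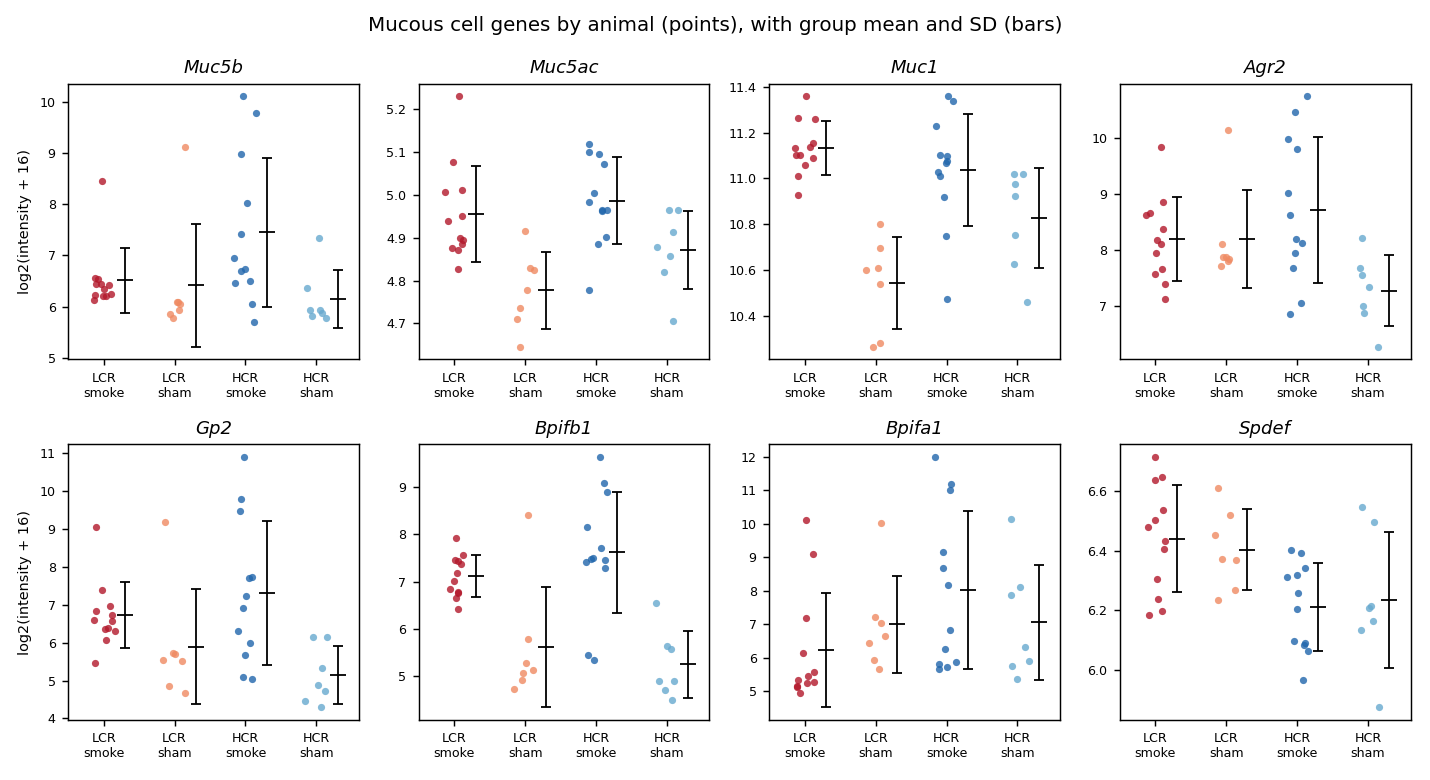
Level of each gene, as log2(intensity + 16), in every animal of the groups LCR smoke, LCR sham, HCR smoke and HCR sham, with the group mean and SD as a bar. Muc1 separates LCR smoke from LCR sham with no overlap, whereas Muc5b, Agr2, Gp2, Bpifb1 and Bpifa1 each have a high LCR sham animal (0442) and a long upper tail in HCR smoke.

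Muc5b, the mucin of resting airways, had a lowest, median and highest intensity of 36.02, 99.1 and 1094 in HCR smoke lungs, against 38.6, 45.4 and 146 in HCR sham lungs. Of the HCR smoke arrays, 5 lay above every sham array and 1 lay below all of them, so the groups overlapped widely, with 0415 (1094), 0410 (869) and 0417 (488) far above the rest. The mean was 7.45 ± 1.46 log2 in HCR smoke and 6.15 ± 0.56 in HCR sham (SD, n = 12 and 7), a rise of 1.30 ± 0.49 (2.47-fold, limma adjusted p = 0.0271). That call was lost when only the 2 HCR groups were fitted (adjusted p = 0.0609), and without HCR smoke 0415 (1.06, adjusted p = 0.0526) or without HCR sham 0433 (1.24, adjusted p = 0.0504). Without all 6 arrays rich in heart markers the change in HCR was 0.49 (limma adjusted p = 0.214).

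In LCR, Muc5b had a lowest, median and highest intensity of 53.6, 67.2 and 337 in smoke lungs, against 38.5, 50.4 and 543 in sham lungs. All 12 smoke arrays exceeded 6 of the 7 sham arrays, whose values ended at 52.6, and none reached the seventh, 0442. With that animal included the change was 0.09 ± 0.49 (95% interval -0.90 to 1.09, limma adjusted p = 0.888), and without the 6 arrays it was 0.55 (limma adjusted p = 0.114). In that smaller set the exact permutation test over arrays gave p = 0.0184, unadjusted, with all 12 smoke arrays above all 6 sham arrays, which 6.63% of all genes show. Under sham, the line difference of Muc5b was 0.27 ± 0.55 (LCR minus HCR, 95% interval -0.84 to 1.39, limma adjusted p = 0.862).

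Muc5ac, the inducible mucin, had a low intensity in every animal. Its intensity was 12.4 to 21.5 (median 14.3) in LCR smoke lungs, against 9.04 to 14.2 (median 11.5) in LCR sham lungs, and 6 of 12 smoke arrays lay above every sham array. In HCR it was 11.4 to 18.7 (median 15.4) in smoke lungs, against 10.1 to 15.2 (median 13.4) in sham lungs, again with 6 of 12 above every sham array. The change was small on the log2(intensity + 16) scale, 0.18 ± 0.05 in LCR (limma adjusted p = 0.0023) and 0.11 ± 0.05 in HCR (limma adjusted p = 0.0471). With a pseudocount of 1 in place of 16 the changes were 0.37 and 0.23. The HCR call was lost on leaving out any of 17 single arrays of the 38, and under 11 of 18 other alternatives, among them leaving out the 6 arrays (0.11, limma adjusted p = 0.117). Over those 18 the change lay between 0.038 and 0.23. No detection call was used for this probe set, so whether such values lie above background is not known.

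Muc1, a mucin anchored in the apical membrane of airway and alveolar epithelial cells, was the one member whose smoke and sham values did not overlap in LCR. Its lowest, median and highest intensity were 1929.8, 2208 and 2608 in LCR smoke lungs, against 1218, 1538 and 1767 in LCR sham lungs. Every smoke array lay above every sham array, which 5.9% of all genes show in LCR. The mean was 11.13 ± 0.12 log2 in LCR smoke and 10.54 ± 0.20 in LCR sham (SD, n = 12 and 7), a rise of 0.59 ± 0.09 (1.50-fold, limma adjusted p = 2.33e-06). The exact permutation p was 1.98e-05, the smallest that these groups can give. No alternative ended this call, and across the alternatives other than leaving out 1 array its change lay between 0.54 and 0.65.

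In HCR the levels of Muc1 were 1406, 2135 and 2609 (lowest, median, highest) in smoke lungs, against 1395, 1927 and 2061 in sham lungs. In 8 of 12 HCR smoke arrays it was above every sham array, and the lowest 4 lay within the sham range. The change of 0.21 ± 0.09 did not pass (limma adjusted p = 0.0560), though it did with median-centred arrays (0.26, adjusted p = 0.0227). The difference of the smoke changes, LCR minus HCR, was 0.38 ± 0.13 (limma adjusted p = 0.107), so a larger change in LCR was not shown. Under sham, Muc1 stood at a median of 1538 in LCR and 1927 in HCR, a difference of -0.28 ± 0.10 (limma adjusted p = 0.123). Both of these differences passed without HCR sham 0439, at 0.44 (adjusted p = 0.0453) and -0.34 (adjusted p = 0.0483).

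Agr2, which folds mucins before export, had a lowest, median and highest intensity of 99.6, 329 and 1703 in HCR smoke lungs, against 61.5, 145 and 282 in HCR sham lungs. Agr2 lay above every sham array on 6 of 12 smoke arrays, and 2, on 0409 and 0416, lay below the sham median. Agr2 rose by 1.44 ± 0.45 in HCR (2.70-fold, limma adjusted p = 0.0081, exact permutation p = 0.0154). Without the 6 arrays the change was 0.82 (limma adjusted p = 0.0912). In LCR, Agr2 was 123, 268 and 899 in smoke lungs, against 195, 219 and 1120.1 in sham lungs, and 4 smoke arrays lay below every sham array. There the change was 0.00 ± 0.45 (95% interval -0.90 to 0.90, limma adjusted p = 0.998). The interaction, LCR minus HCR, was -1.43 ± 0.63 (unadjusted p = 0.0287, limma adjusted p = 0.205).

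Gp2, a glycoprotein of secretory granule membranes in the pancreas and an uptake receptor on M cells in mice, had a lowest, median and highest intensity of 16.9, 119 and 1887 in HCR smoke lungs, against 3.64, 13.8 and 55.4 in HCR sham lungs. It lay above every sham array on 8 of 12 smoke arrays. The rise was 2.17 ± 0.64 (4.51-fold, limma adjusted p = 0.0054), and without the 6 arrays it was 1.37 (limma adjusted p = 0.0148), so the call held at a smaller size. It was lost when only the 4 HCR smoke arrays among them were left out (1.20, adjusted p = 0.0697). In LCR, Gp2 was 28.4, 80.1 and 514 in smoke lungs, against 9.50, 30.3 and 568 in sham lungs. In LCR, 11 of 12 smoke arrays exceeded 6 of the 7 sham arrays, and none exceeded 0442. The change of 0.84 ± 0.64 did not pass (limma adjusted p = 0.275), whereas without the 6 arrays it was 1.39 and passed (limma adjusted p = 0.00565, exact permutation p = 0.00097).

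Bpifb1, a secreted BPI fold protein of airway epithelium, was the member with the smallest adjusted p in HCR. Its lowest, median and highest intensity were 24.9, 163 and 781 in HCR smoke lungs, against 6.48, 14.1 and 77.2 in HCR sham lungs. Of the smoke arrays, 10 of 12 lay above every sham array, and the other two, 0409 and 0416, exceeded the sham median. The mean was 7.62 ± 1.29 log2 in HCR smoke and 5.25 ± 0.71 in HCR sham (SD, n = 12 and 7), a rise of 2.37 ± 0.45 (5.16-fold, limma adjusted p = 6.88e-05). In LCR, Bpifb1 was 69.9, 121 and 226 in smoke lungs, against 10.5, 18.9 and 323 in sham lungs. All 12 LCR smoke arrays exceeded 6 of the 7 sham arrays, whose values ended at 39.4, and none exceeded 0442. The rise was 1.50 ± 0.45 (2.83-fold, limma adjusted p = 0.0063). Without the 6 arrays it was 1.97 in LCR (limma adjusted p = 1.6e-05) and 1.85 in HCR (adjusted p = 0.000187). It passed in HCR under every alternative, and in LCR under all but the array interquartile range as a covariate (1.22, adjusted p = 0.0540).

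Bpifa1, a neighbour of Bpifb1 and an abundant secreted protein of nasal and large airway epithelium, varied more between animals than any other member. Its lowest, median and highest intensity were 15.0, 26.3 and 1093 in LCR smoke lungs, against 35.2, 85.2 and 1023 in LCR sham lungs. As many as 8 of 12 LCR smoke arrays lay below every LCR sham array, while 0421 lay above all of them. In HCR it was 35.1, 186 and 4071 in smoke lungs, against 24.8, 63.8 and 1109 in sham lungs, with 3 of 12 smoke arrays above every sham array. Neither change passed: -0.77 ± 0.88 in LCR (95% interval -2.55 to 1.01, limma adjusted p = 0.474) and 0.97 ± 0.88 in HCR (-0.81 to 2.75, limma adjusted p = 0.374). Among smoke-exposed rats, 8 of 12 LCR arrays lay below every HCR array, and the line difference was -1.81 ± 0.75 (limma adjusted p = 0.135). This difference passed with array weights (-2.03, adjusted p = 0.0273), and a permutation test of it with 100000 resamples gave p = 0.0438, unadjusted. Without the 6 arrays it was -0.41 (limma adjusted p = 0.749).

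Spdef, the goblet cell transcription factor, did not pass the test for smoke in either line. Its intensity was 56.7 to 89.0 (median 71.7) in LCR smoke lungs, against 59.2 to 81.8 (median 66.7) in LCR sham lungs, and 46.5 to 68.6 (median 59.2) in HCR smoke lungs, against 42.7 to 77.5 (median 57.9) in HCR sham lungs. The smoke changes were 0.04 ± 0.08 in LCR (95% interval -0.13 to 0.20) and -0.02 ± 0.08 in HCR (-0.19 to 0.14), with limma adjusted p of 0.722 and 0.831. The sign in HCR flips to 0.02 with median-centred arrays and 0.04 after quantile normalization. Spdef was the only member that passed between the lines under smoke, where 6.32% of all genes passed (4.61% higher in LCR). It was higher in LCR by 0.23 ± 0.07 (1.17-fold, limma adjusted p = 0.0401), and 8 of 12 LCR smoke arrays lay above every HCR smoke array. That call was lost on leaving out any of 13 single arrays, and under 6 of 18 other alternatives: quantile normalization, all probe sets, the interquartile range or heart markers as a covariate, and without the 4 HCR smoke arrays or all 6 (0.24, adjusted p = 0.0912). The size lay between 0.18 and 0.28 under all 18. Under sham the difference ran the same way, at 0.17 ± 0.09 (limma adjusted p = 0.333).

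Of the 8 genes, 0 passed in limma between the lines under sham, where 3.73% of all genes passed, and 0 passed in the interaction, where 1.87% did. The unadjusted limma p was under 0.05 for Muc1 under sham, and for Muc1 and Agr2 in the interaction. Many other genes reached that cut: by p, Muc1 ranked 1101 of 14217 genes under sham. In the interaction Muc1 ranked 820 and Agr2 1996. Nothing particular to the 8 genes is read from these counts. The exact permutation test of the sham difference gave unadjusted p = 0.0286 for Muc1 and p = 0.0204 for Agr2, whose medians were 219 in LCR and 145 in HCR sham lungs. That test was run on the 8 genes only, so no share of all genes stands beside these p. Agr2 was above the HCR sham mean on all 7 LCR sham arrays. Across the 18 alternatives other than leaving out 1 array, its sham difference lay between 0.22 and 0.998. The estimated interaction was negative for Muc5b, Agr2, Gp2, Bpifb1 and Bpifa1 (-1.21 to -1.74 for 4 of them and -0.87 for Bpifb1). Without the 6 arrays it was -0.49 for Agr2, -0.35 for Bpifa1, 0.06 for Muc5b, 0.02 for Gp2 and 0.12 for Bpifb1. The mean of ciliated cell markers, described below, was 0.26 log2 in LCR sham and -0.02 in HCR sham. With that mean as a covariate the interaction was -0.49 for Agr2, -0.75 for Bpifa1, -0.31 for Muc5b, -0.26 for Gp2 and -0.08 for Bpifb1.

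**Figure D2:**
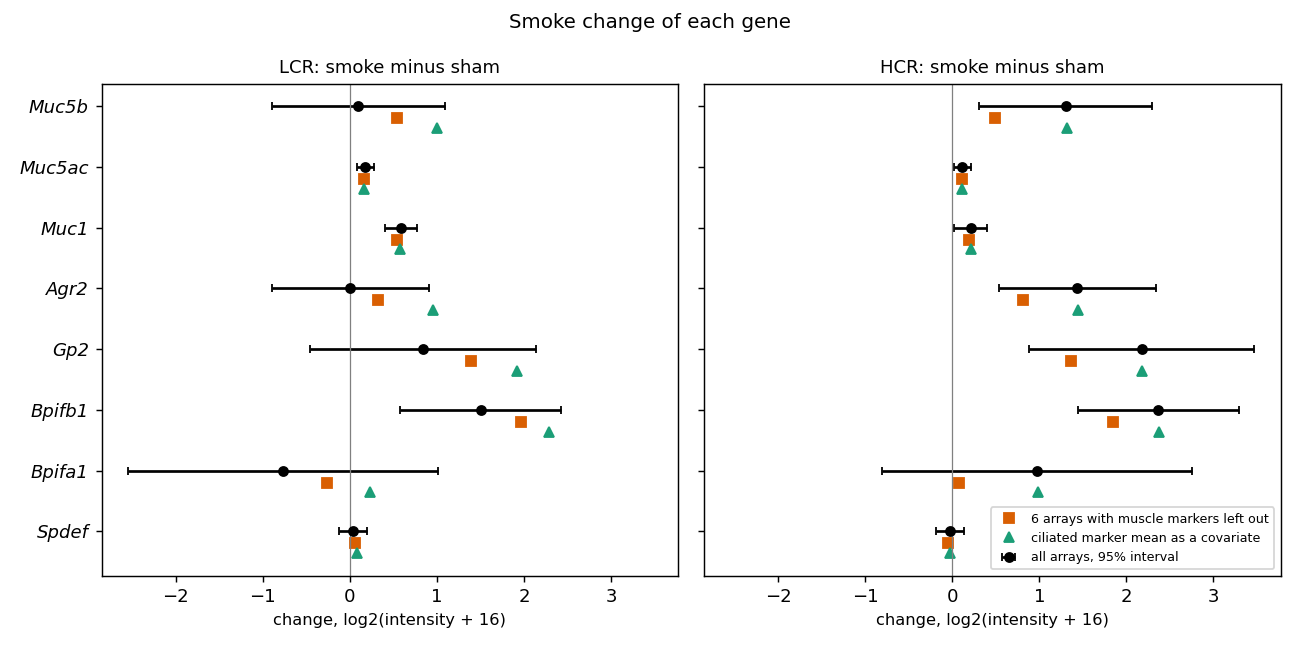
Smoke minus sham difference of each gene in LCR and in HCR, on the log2(intensity + 16) scale: a black point with its 95% interval for all arrays, an orange square without the 6 arrays rich in heart muscle markers, and a green triangle with the ciliated marker mean as a covariate. For Muc1 in LCR and Bpifb1 in both lines the interval lies above 0, and so do the square and triangle, which are drawn without intervals. Muc5b and Agr2 shift between settings.

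Muc5b, Agr2, Gp2, Bpifb1 and Bpifa1 varied together from animal to animal. The SD within groups was 1.06 log2 for Muc5b, 0.97 for Agr2, 1.39 for Gp2, 0.99 for Bpifb1 and 1.91 for Bpifa1, against a median of 0.12 over all genes. Muc1 (0.20), Spdef (0.17) and Muc5ac (0.10) were far steadier. Over the 38 arrays with group means removed, Muc5b ran at r = 0.91 with Agr2, 0.92 with Gp2, 0.87 with Bpifb1 and 0.78 with Bpifa1, as a description. HCR smoke 0410, 0415 and 0417 were high in all of them: Agr2 stood at 1404, 1703 and 996 there, and Gp2 at 695, 1887 and 872. HCR smoke 0409 and 0416 were low in the same genes, with Muc5b at 36.02 and 50.2, Gp2 at 18.4 and 16.9 and Bpifb1 at 27.8 and 24.9. The ciliated and club marker means were also high or low there, at 0.75 and 0.96 on 0410, 0.49 and 0.68 on 0415, 0.21 and 0.42 on 0417, -0.42 and -0.38 on 0409, and -0.45 and -0.67 on 0416. LCR sham 0442 stood at 0.73 and 0.86. Muc1, Muc5ac and Spdef had no correlation beyond 0.19 in size with any other member.

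**Figure D3:**
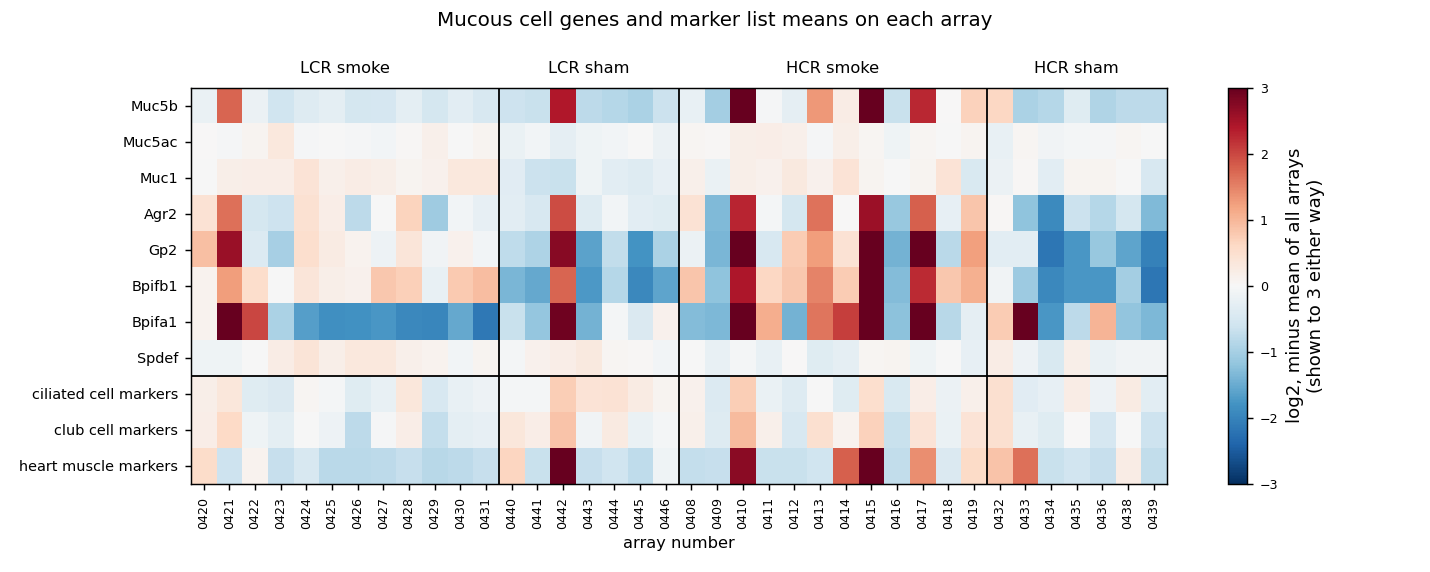
The 8 genes and the mean of ciliated, club and heart muscle markers on each of the 38 arrays, as log2 minus the mean of all arrays, limited to 3 in colour. LCR sham 0442 and HCR smoke 0410, 0415 and 0417 are high across Muc5b, Agr2, Gp2, Bpifb1 and Bpifa1 and in heart muscle markers, and HCR smoke 0409 and 0416 are low. LCR smoke 0421 is the highest of its group in the same genes, at a heart marker mean of -0.62. HCR sham 0433, at a heart marker mean of 1.64, has the lowest Muc5b and the highest Bpifa1 of its group.

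Within HCR smoke, Muc5b correlated with Agr2 at r = 0.96 and rho = 0.95 (permutation tests, adjusted p = 4.67e-05 and 0.00014 over 14 relations, n = 12). The same held for Gp2 (r = 0.95, rho = 0.89), Bpifb1 (0.91 and 0.88) and Bpifa1 (0.92 and 0.91), with permutation adjusted p of at most 0.00129. Without 0410 and 0415, the arrays farthest from the Muc5b median, r was 0.94 for Agr2, 0.92 for Gp2, 0.86 for Bpifb1 and 0.85 for Bpifa1, so the 4 relations did not rest on those arrays. Within LCR smoke, r with Muc5b was 0.76 for Agr2, 0.89 for Gp2, 0.59 for Bpifb1 and 0.79 for Bpifa1 (permutation adjusted p of 0.00654, 0.00654, 0.0346 and 0.00549), with rho of 0.68, 0.60, 0.44 and 0.51, none of which passed. Without 0421 and 0423 these r were 0.50, 0.34, 0.08 and 0.71, so all but that of Bpifa1 (permutation adjusted p = 0.00874) rest on those arrays. Spdef ran the other way in LCR smoke (r = -0.53, permutation adjusted p = 0.0346; rho = -0.62, adjusted p = 0.0873), and this did not pass without those arrays (-0.62, adjusted p = 0.14).

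Markers of the ciliated cells that line the same airways were set beside these genes. Of 22 ciliated markers measured, 0 rose and 11 fell with smoke in LCR (median change -0.44), and 0 rose and 3 fell in HCR (median -0.02), against a median of -0.00 and -0.03 over all genes. Over all genes 27.9% fell in LCR and 30.4% in HCR. The list mean per array lay between -0.49 and 0.35 in LCR smoke, against -0.06 and 0.73 in LCR sham, and between -0.45 and 0.75 in HCR smoke, against -0.35 and 0.48 in HCR sham. Agr2 correlated with it in both smoke groups, at r = 0.94 and rho = 0.94 in LCR (permutation adjusted p = 0.00048 for each, over 48 relations) and r = 0.91 and rho = 0.94 in HCR (adjusted p = 0.00096 for r). Without the 2 farthest arrays r was 0.93 in LCR and 0.86 in HCR. Gp2 correlated at r = 0.78 and rho = 0.90 in LCR (permutation adjusted p = 0.00252 and 0.0023), and at 0.83 without the 2 farthest arrays. In HCR it was at r = 0.81 and rho = 0.83 (permutation adjusted p = 0.00754 and 0.00744), which did not pass without 0410 and 0415 (0.68, adjusted p = 0.164). Bpifb1 and Bpifa1 gave r of 0.52 and 0.30 in LCR, with rho of 0.50 and 0.16, none of which passed (permutation adjusted p from 0.183 to 0.762). In HCR they gave r of 0.83 and 0.71 (rho 0.92 and 0.71, permutation adjusted p from 0.00048 to 0.0457), and neither r passed without 0410 and 0415 (0.75 and 0.42). For Muc5b r was 0.89 in HCR (rho 0.88, permutation adjusted p = 0.00252 and 0.00272) and 0.60 in LCR (rho 0.68, adjusted p = 0.0221 and 0.0531), and neither passed without the 2 farthest arrays. With the cartilage marker mean, r passed in HCR smoke for Agr2 (0.72, permutation adjusted p = 0.0233) and Bpifb1 (0.72, adjusted p = 0.0313). Neither passed without 0413 and 0415 (0.58 and 0.76). In LCR smoke only the rho of Bpifa1 with cartilage markers passed (0.73, permutation adjusted p = 0.0373), not its r (0.58, adjusted p = 0.112).

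**Figure D4:**
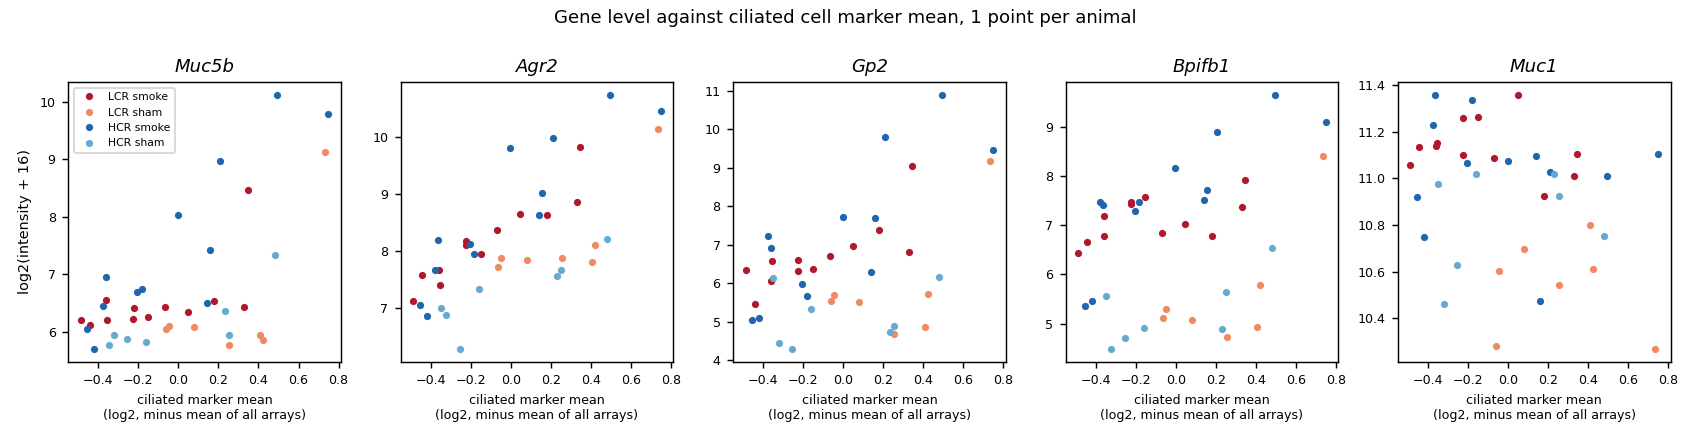
Level of Muc5b, Agr2, Gp2, Bpifb1 and Muc1, as log2(intensity + 16), against the mean of 22 ciliated cell markers (log2 minus the mean of all arrays), 1 point per animal, by group. Agr2 follows the ciliated mean in both smoke groups, at r = 0.94 in LCR and 0.91 in HCR, and Muc1 shows no such slope.

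With the ciliated marker mean as a covariate, 6 of the 8 genes passed in LCR, all higher with smoke, where 45.6% of all genes passed (20.1% higher). Agr2 was then higher by 0.96 (limma adjusted p = 0.00115), Muc5b by 0.998 (adjusted p = 0.0202), Gp2 by 1.92 (adjusted p = 0.0022) and Bpifb1 by 2.29 (adjusted p = 2.39e-06). The covariate itself differed with smoke in LCR, with a group mean of -0.12 in smoke and 0.26 in sham lungs. These adjusted values are therefore not the whole smoke change, and no gain of a call is read from this covariate. The HCR changes hardly moved under it, at 1.31 for Muc5b and 1.44 for Agr2. With heart muscle markers as the covariate, Gp2 in LCR was higher by 1.53 (adjusted p = 0.0019). Within HCR smoke the heart marker mean correlated with Bpifa1 (r = 0.87, rho = 0.85), Muc5b (0.85 and 0.90), Gp2 (0.83 and 0.77), Agr2 (0.74 and 0.77) and Bpifb1 (0.73 and 0.71), with permutation adjusted p of 0.00496 to 0.0246 for r. None of the 5 r passed without 0410 and 0415 (n = 10), at 0.72, 0.58, 0.62, 0.45 and 0.48 in the same order. The rho there were 0.77, 0.82, 0.62, 0.60 and 0.49. Within LCR smoke the r with the heart marker mean were 0.52, 0.10, 0.15, 0.16 and -0.12 in that order. None of these passed (permutation adjusted p from 0.163 to 0.82), and of the rho only that of Bpifa1 did (0.69, adjusted p = 0.0495). The spread of values on an array, its interquartile range, was 2.79 to 3.005 log2 in LCR smoke, against 2.97 to 3.04 in LCR sham, and 2.74 to 2.94 in HCR smoke, against 2.94 to 3.04 in HCR sham. Every HCR smoke array lay below every HCR sham array in this range, the nearest being 0410 at 2.937 and 0439 at 2.941. With it as a covariate only Bpifb1 passed in HCR (1.93, limma adjusted p = 0.0163), where 3024 of 14217 genes did. In HCR this covariate can hardly be told apart from smoke, so no loss of a call is read from it. The part that airway content, tissue near the heart or array spread has in the mucous gene changes was not tested.

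The genes most like Muc5b over the 38 arrays, by r after group means were removed, were Tsku (0.97), Lypd6b (0.93), Gp2 (0.92), Scin (0.92) and Agr2 (0.91). Those most like Agr2 were Terf2ip (0.95), the stem and epithelial membrane gene Prom1 (0.95), the dynein light chain Dynlrb2 (0.94), Gstm1 (0.93) and Akap14 (0.93). Dynlrb2 is one of the ciliated markers. For Bpifb1 they were Mrps6 (0.89), the complement gene C9 (0.89), Lypd6b (0.88), Gp2 (0.88) and Tsku (0.88). These likenesses are read across arrays that also share the marker differences above.

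Other genes of mucus production, grouped by role, did not move as a block. The only other gel-forming mucin measured, Muc2 of the intestine, differed by 0.06 in LCR (limma adjusted p = 0.14) and rose by 0.09 in HCR (adjusted p = 0.0172). Among 5 other membrane mucins and sialomucins, 2 rose and 1 fell in LCR, and 3 rose and 1 fell in HCR. The sialomucin Cd164 rose by 0.21 in LCR and 0.17 in HCR, and the endothelial sialomucin Emcn fell by 0.77 in LCR and by 0.57 in HCR. Muc4 rose by 0.12 and 0.14 (adjusted p = 0.00555 and 0.00137), at an intensity of only 3.98 to 10.3.

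**Figure D5:**
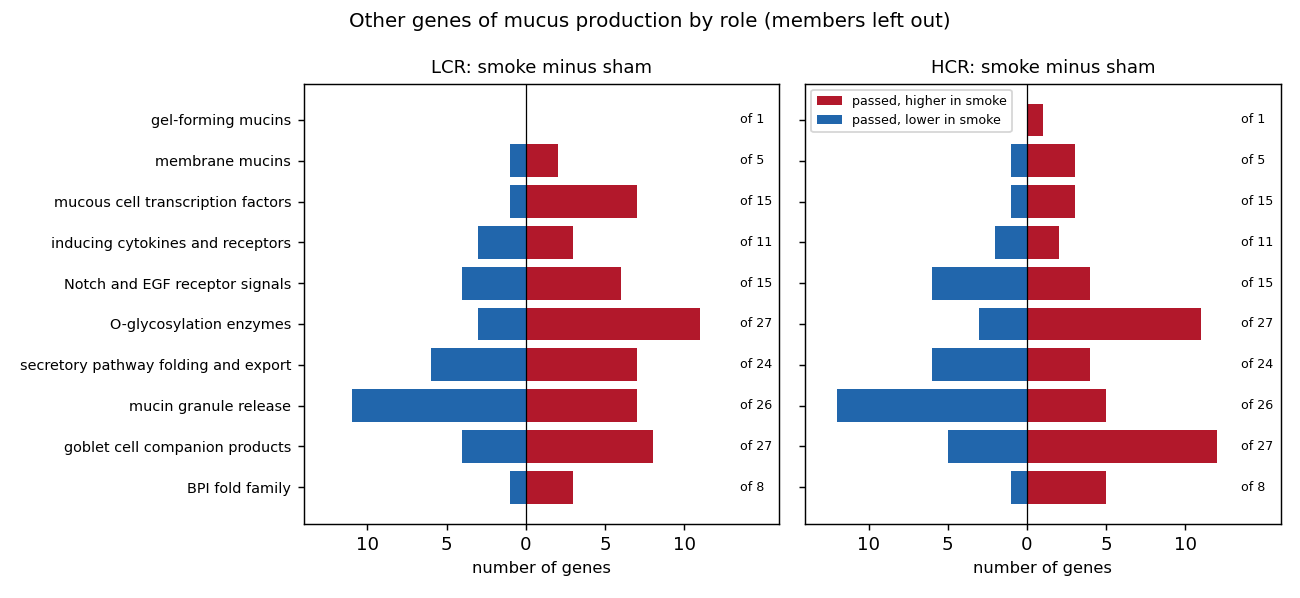
Number of genes that passed the test higher (right) or lower (left) with smoke in LCR and HCR for 10 lists of mucus production by role, the 8 genes left out, with the number measured at the right. O-glycosylation enzymes had 11 higher and 3 lower in each line, and granule release genes had 11 of 26 lower in LCR and 12 of 26 in HCR. Over all genes 22.7% passed higher and 27.9% lower in LCR, and 17.7% and 30.4% in HCR. Centring each array on its median turns that split.

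Of 15 transcription factors of mucous cells other than Spdef, 7 rose and 1 fell in LCR and 3 rose and 1 fell in HCR (medians 0.09 and 0.07). Elf3, an epithelial ETS factor, rose by 0.79 ± 0.12 in LCR and 0.89 ± 0.12 in HCR (limma adjusted p = 2.18e-06 and 5.62e-07). Its relative Ehf rose by 0.52 in LCR (adjusted p = 6.68e-06) and was at 0.16 in HCR (adjusted p = 0.125). Xbp1, which expands the secretory machinery, rose by 0.24 and 0.27, whereas Foxa1, a pioneer factor of airway epithelium, fell by 0.55 in LCR and by 0.29 in HCR. Of 11 cytokines and receptors that induce mucins, 3 rose and 3 fell in LCR and 2 rose and 2 fell in HCR. Il1b rose by 0.66 and 0.83 and its receptor Il1r1 by 0.50 and 0.66, while the alarmin Il33 fell by 0.68 in LCR and by 0.25 in HCR. Notch and EGF receptor signals, 15 genes that steer secretory cell fate, were split too, with 6 up and 4 down in LCR and 4 up and 6 down in HCR. The ligand Nrg1 rose by 0.85 and 0.39, and Notch1 fell by 0.48 in LCR and by 0.38 in HCR.

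The enzymes that attach and extend mucin sugars gave 11 rises and 3 falls among 27 genes in each line, with median changes of 0.09 in LCR and 0.07 in HCR. Galnt10, which starts O-glycan chains, rose by 0.96 ± 0.11 in LCR and 0.60 ± 0.11 in HCR, and B3gnt7 and the sulfotransferase Chst1 rose by 0.84 and 1.08 in LCR and by 0.52 and 0.83 in HCR. Of 24 genes of folding and export other than Agr2, 7 rose and 6 fell in LCR and 4 rose and 6 fell in HCR. The disulfide isomerase P4hb rose by 0.27 and 0.21 and the coat protein Sec24d by 0.47 and 0.31, while the oxidase Ero1b fell by 0.57 in LCR and by 0.48 in HCR. Among 26 genes of mucin granule release, 7 rose and 11 fell in LCR and 5 rose and 12 fell in HCR (median -0.11 in each). Unc13d, which primes granules for fusion, fell by 0.74 ± 0.08 in LCR and by 0.83 ± 0.08 in HCR. Vamp2, a granule SNARE, fell by 0.55 in LCR and by 0.44 in HCR. The purinergic receptors that trigger release went up: P2ry2 rose by 1.02 and 0.76 and the adenosine receptor Adora2b by 0.92 and 0.30.

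Of 27 other products of goblet cells, 8 rose and 4 fell in LCR and 12 rose and 5 fell in HCR. The siderophore-binding lipocalin Lcn2 rose by 3.17 ± 0.43 and 2.09 ± 0.43, and Pigr, which carries immunoglobulin A across the epithelium, by 0.51 and 0.26. Aldh1a3, a retinoic acid enzyme, fell by 0.92 in LCR and by 0.42 in HCR. In the BPI fold family, 3 of 8 other genes rose and 1 fell in LCR and 5 rose and 1 fell in HCR. Lbp, which binds lipopolysaccharide, rose by 0.85 and 0.51, and the lipid transfer protein Pltp fell by 0.41 in LCR and by 0.37 in HCR. Bpifa5 was at 0.00 ± 0.23 in LCR (limma adjusted p = 0.997) and rose by 0.74 ± 0.23 in HCR (adjusted p = 0.00779). For these lists the shares that passed in either direction lay on both sides of the 50.6% and 48% of all genes. By direction, 22.7% of all genes passed higher and 27.9% lower in LCR, and 17.7% and 30.4% in HCR. Nothing particular to a list is read from its counts or their direction.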

How the data were processed

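RNA from lungs of 38 rats was measured on 1 Affymetrix array per animal, and groups were taken from the labels. The deposited table gives 31099 probe sets as linear intensity, from 2.09 to 11558. How the authors summarised and scaled these intensities is not stated in the labels used here. Precision is limited by the number of arrays. Array numbers lie in blocks by group, so their order and the group cannot be told apart.

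From these, log2(intensity + 16) was computed without rescaling. The platform annotation gave 1 gene symbol to 20826 probe sets, several to 436 and none to 9780, and 57 were controls. The probe set with the highest mean was kept per gene, for 14217 genes. Limma 3.58.1 (R 4.3.3) fitted the 4 group means over all 38 arrays, and 5 contrasts were adjusted by Benjamini-Hochberg over all genes. Permutation tests (two-sided, exact, or 100000 resamples between groups of 12 and for correlations) used Python 3.11.15, NumPy 2.4.6 and pandas 2.3.3. Ranks and the Benjamini-Hochberg adjustment of the correlations used SciPy 1.17.1, and plots matplotlib 3.10.9. The test was tested on simulated data.

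The 8 genes and all gene lists were chosen with earlier results of these data known. Named besides the 8 were up to 4 genes a list by smallest adjusted p, and the 5 genes most like Muc5b, Agr2 and Bpifb1. Alternatives numbered 38 that leave out 1 array and 21 others.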

Additional observations from a re-analysis of the deposited data

Results flagged for a closer look

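Among the 22 sets of 7 sham values checked for an animal far from the rest of its group, 7 stood out. A single set passes that cut by chance about 1 time in 20. The sets share the same animals and several of the genes varied together, so that rate does not apply to their count. The smoke groups were not checked in this way. LCR sham 0442 accounts for 6 of them. On that array Muc5b was at 9.13 log2(intensity + 16), with the nearest other LCR sham array at 6.10. Agr2 was at 10.15 (nearest 8.10), Gp2 at 9.19 (5.73), Bpifb1 at 8.41 (5.79) and Bpifa1 at 10.02 (7.22). The heart muscle marker mean on the same array was 3.48, with the nearest other at 0.63. HCR sham 0432 was the other, with Muc5b at 7.34 and the nearest HCR sham array at 6.36. On 0432 the ciliated marker mean was 0.48 and the heart marker mean 0.86, both relative to the mean of all arrays. No cause was tested.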

How the results depend on the processing

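Muc1 in LCR and Bpifb1 in HCR kept their direction and their call under every alternative run, and so did Muc5ac in LCR under all but the filter on low genes, which removed it and left 2 members passing there. The cause of the changes below was not tested, except that using all probe sets tests more features. Genes passing were 13229 in LCR and 12324 in HCR with all probe sets, and 3024 in HCR with the array interquartile range (IQR) as a covariate. Between lines under smoke they were 2860 with array weights, 366 with the IQR, 449 without the 4 HCR smoke arrays and 487 without all 6. Under sham they were 816 median-centred, 1240 with all probe sets, 233 fitting only the groups compared, 946 with weights and 830 with the IQR. In the interaction they were 552 median-centred, 531 with all probe sets, 1537 with weights, 562 with the Gapdh and 629 with the Actb covariate, 86 with the ciliated and 101 with the heart covariate, 107 without 4, 96 without 0433 and 0442, and 58 without 6. Leaving out 1 array gave 81 to 768 in the interaction and 314 to 830 under sham.

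Members passing in HCR were 3 fitting only the groups compared and 1 without 4, for which no share of all genes is given here. They were 1 with the IQR, where 3024 of 14217 genes passed, and 2 without 6, where 38.5% of all genes did. In LCR they were 6 with the ciliated covariate, where 45.6% of all genes passed. Between lines under smoke they were 2 with weights and 0 with quantile normalization, all probe sets, the IQR, the heart covariate, or without 4 or 6 arrays. Leaving out 1 array gave 3 to 6 in HCR and 0 to 1 between lines under smoke, under sham and in the interaction. The number of all genes passing moved with the setting too, so no result about the members is read from these counts.

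Directions reversed as follows. Spdef in HCR was 0.038 with quantile normalization, 0.021 median-centred, 0.039 with Gapdh, 0.045 with Actb and 0.10 with the IQR. With the IQR, LCR changes were -0.22 for Muc5b and -0.24 for Agr2, that of Bpifa1 in HCR was -0.93, and Muc5ac between lines under smoke was 0.0014. Bpifa1 under sham was 0.027 with weights and 0.036 with the IQR. With the ciliated covariate Bpifa1 in LCR was 0.23, and sham differences were -0.39 for Muc5b, -0.048 for Gp2 and -0.21 for Bpifb1. With the heart covariate Bpifa1 in LCR was 0.13, and smoke-exposed line differences were 0.026 for Agr2, 0.34 for Gp2 and 0.13 for Bpifb1. Without 4 HCR smoke arrays, and without 6, these were 0.058, 0.38 and 0.070, and without 4 Bpifa1 in HCR was -0.43. Without 0433 and 0442, and without 6, sham differences were -0.24 for Muc5b and -0.045 for Bpifb1, and without 6 the interaction was 0.058 for Muc5b, 0.023 for Gp2 and 0.12 for Bpifb1. Leaving out 1 array, Muc5b in LCR ranged from -0.083 to 0.55, Agr2 in LCR from -0.15 to 0.33 and Spdef in HCR from -0.083 to 0.029, and sham differences from -0.18 to 0.47 for Muc5b, -0.10 to 0.58 for Bpifb1 and -0.57 to 0.45 for Bpifa1.

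Correlations that changed sign without the 2 farthest arrays had not passed before. In LCR smoke they were Muc5ac with Muc5b (0.075), with cartilage (-0.12) and with heart markers (-0.035), Muc1 with cartilage (0.031) and heart (0.51), and Bpifb1 (0.33) and Spdef (0.092) with heart. In HCR smoke they were Spdef with Muc5b (-0.36), ciliated (-0.20), cartilage (0.046) and heart markers (-0.32). No paired analysis was possible because the groups share no replicate numbers.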

Other observations

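Gp2 marks M cells in mice, and 8 other markers of M cells and gut epithelium were measured. Of these, 6 rose with smoke in each line and 0 fell (medians 0.59 in LCR and 0.48 in HCR). Over all genes 50.6% passed in LCR (22.7% higher) and 48% in HCR (17.7% higher). The lists were chosen with earlier results of these data known. Nothing particular to a list, or to M cells, is read from the counts here or their direction. Tnfaip2, known in M cells and in myeloid cells, rose by 1.15 ± 0.13 in LCR and 1.03 ± 0.13 in HCR (limma adjusted p = 2.89e-09 and 7.37e-08). Ccl20, a chemokine that epithelial cells release, rose by 1.23 and 1.78 (limma adjusted p = 0.00185 and 3.03e-05). Of 8 submucosal gland markers, 3 rose and 1 fell in each line. Lpo, the peroxidase of airway secretions, rose by 4.10 ± 0.40 in LCR and 3.41 ± 0.40 in HCR (limma adjusted p = 3.21e-10 and 3.53e-08). Markers of neutrophils, cells that smoke is known to bring into the airway, rose for 6 of 9 genes in LCR and 5 of 9 in HCR, and 0 fell. Of 15 markers of eosinophils, mast cells and type 2 responses, 2 rose and 1 fell in LCR and 1 rose and 1 fell in HCR. Club cell markers gave 1 rise and 4 falls among 8 in LCR, and 1 of each in HCR.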
